A study of Homo sapiens with 12 samples.

Results

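HK2 cells, which are epithelial cells of the human proximal tubule made immortal in culture, were compared after TNF-α followed by butyrate (TNBU) and after TNF-α alone (TN). The comparison used 4 of the 12 libraries of the series, the 2 biological replicates of each group, which were chosen by their labels and not by any measured value. TN cells received 5 ng/mL TNF-α for 3 h. TNBU cells received the same TNF-α and then 3 mM butyrate for 24 h, so their RNA was collected a day later after TNF-α than that of TN cells. For reference, the untreated cells (Ctrl) and the cells that received 3 mM butyrate for 24 h and then TNF-α for 3 h (BUTN) are given beside them, with 2 replicates each. The other 4 libraries are cells given 15 mM propionate for 24 h before (PRTN) or after (TNPR) the same TNF-α. They entered the model and the comparison of replicates only, apart from the TNPR levels of LCN2, SAA1 and SAA2. No group analysed here received TNF-α and then a day in medium without butyrate, so in TNBU against TN the butyrate and the time since TNF-α cannot be told apart. BUTN and TNBU both had butyrate for 24 h and also differ in the time since TNF-α. All groups come from the same cell line, and nothing in the labels says more about how the replicate cultures were made, so p-values measure the spread between these samples. The labels also carry a general protocol that speaks of thapsigargin and JQ1. The label of a treated library itself gives TNF-α and any short-chain fatty acid, and that one was used.

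TNF-α binds TNF receptor 1 and, through the IKK kinases, frees NF-κB from its inhibitor IκB. NF-κB then switches on genes for cytokines, chemokines and adhesion molecules together with its own inhibitors, so the response fades once TNF-α is gone. Butyrate is a short-chain fatty acid made by gut bacteria that enters cells through monocarboxylate transporters and inhibits histone deacetylases, which changes histone acetylation and the transcription of many genes. In the kidney, proximal tubular cells are a main target of acute injury and a source of inflammatory mediators.

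The libraries held 27269986 and 28497760 expected counts in TNBU and 29049322 and 30517192 in TN. Levels are given as CPM, the counts scaled to library size with TMM factors. By library size alone, without these factors, a gene with 3 counts stood at 0.0983 to 0.11 CPM in these 4 libraries. Changes are log2 fold changes from limma-voom with their standard error (SE), and a gene was called where the fold change was over 1.5 and the Benjamini-Hochberg adjusted p was under 0.05. More genes had a count of at least 1 in TNBU (26963 and 27959) than in TN (24515 and 24548). Mitochondrial transcripts held 5.86% and 7.57% of the counts in TNBU and 8.09% and 7.78% in TN.

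The TNBU replicates had the largest median difference of the 6 groups, and those of TNPR the next. The median absolute log2 difference between replicates was 0.158 in TNBU and 0.104 in TN, against 0.14 in TNPR and 0.0828 to 0.0958 in Ctrl, BUTN and PRTN. Among genes with a mean of at least 10 CPM in the group, 136 of 10064 (1.35%) differed over 1.5-fold between the TNBU replicates and 27 of 9964 (0.271%) between the TN replicates. TNPR, the propionate group of the same order, had 88 of 10047 genes (0.876%), and whether these 2 groups differ was not tested. Of the 136 genes of TNBU, 89 were higher in TNBU replicate 1 and 47 in replicate 2. The 8 largest differences among genes with a mean of at least 10 CPM in TNBU were the following. The level was 0.423 CPM in replicate 1 and 102 CPM in replicate 2 for RP5-940J5.9, and 0 and 27.9 CPM for TGFB2-OT1. Of MIR6723 it was 0 and 25.4 CPM, of MAGED4 3.87 and 16.4 CPM, and of the paired copies CH507-513H4.4 and CH507-513H4.6 46.8 and 129 CPM. It was higher in replicate 1 for a second identifier of MATR3 (18.3 and 1.80 CPM) and for RP11-887P2.3 (20.7 and 3.53 CPM). MAGED4, MATR3 and the CH507 pair have near-identical copies or overlapping identifiers, so their counts are uncertain. RP11-887P2.3 is annotated as a processed pseudogene and also differed between the TN replicates, at 7.25 and 28.3 CPM. The first 3 genes also had wide gaps between replicates in other groups. RP5-940J5.9 stood at 21.3 and 0 CPM and MIR6723 at 97.2 and 8.24 CPM in PRTN, and TGFB2-OT1 at 4.88 and 20.3 CPM in TNPR. The change against the TN mean was the larger in replicate 2 for 67.1% of the genes called higher and 63.1% of those called lower.

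**Figure D1:**
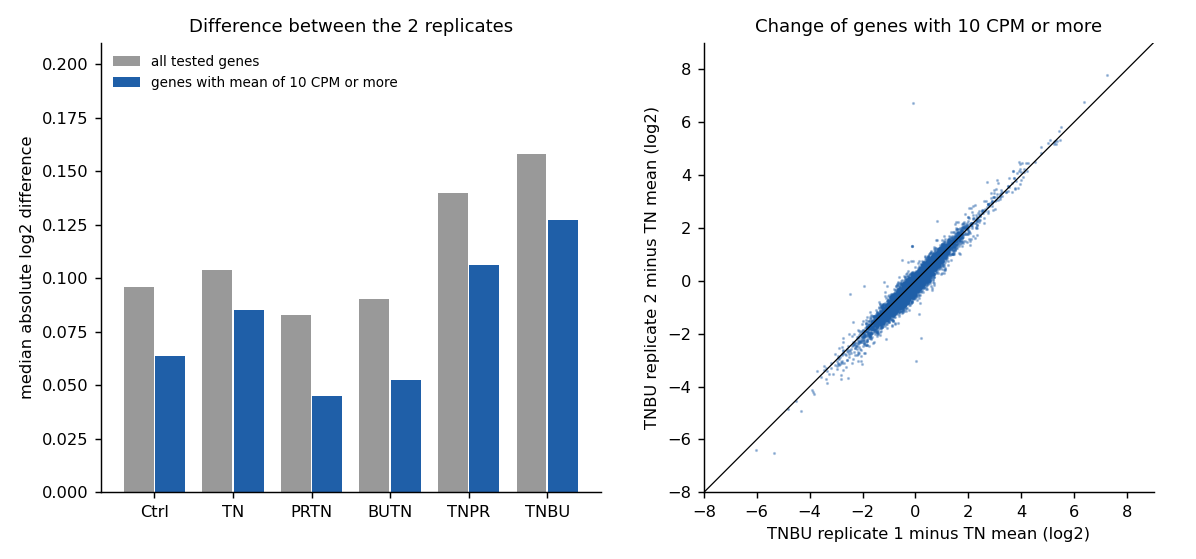
Left, the median absolute log2 difference between the 2 replicates of each group, for all tested genes (grey) and for genes with a mean of 10 CPM or more in the group (blue). TNBU has the tallest bars, 0.158 and 0.127. Right, the change of each gene with a mean of 10 CPM or more over the 4 libraries, as log2(CPM + 0.5) minus the log2 of the TN mean + 0.5, in TNBU replicate 1 (horizontal) and replicate 2 (vertical), with the line of equality. Most points lie along the line, with a few genes far from it.

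The line's label was checked against markers of the proximal tubule. PAX8, a transcription factor of kidney epithelium, stood at 392 and 414 CPM in TN and 128 and 134 CPM in TNBU. GGT1, a brush border enzyme, stood at 179.5 and 208 and then 71.9 and 69.7 CPM, and the cadherin CDH6 at 744 and 756 and then 51.7 and 37.8 CPM. These genes were lower in both TNBU libraries than in both TN libraries, and all were called. The uptake receptor LRP2 (megalin) was at 0 CPM in both TN libraries and at 0.876 and 0.863 CPM in TNBU, the organic anion transporter SLC22A6 at 0 CPM in all 4, and the phosphate transporter SLC34A1 under 0.1 CPM in all 4. Both groups thus carried PAX8, a factor of the tubule, but LRP2, SLC22A6 and SLC34A1 at under 1 CPM. Of the 13 tested among 15 proximal tubule markers, 7 rose and 4 fell in TNBU, against 25.0% and 16.5% of all tested genes. PAX8, GGT1 and CDH6 were among the falls. Among the rises were AQP1, from 0.447 and 0.431 CPM in TN to 8.34 and 9.36 CPM in TNBU, and ANPEP, from 0 to 1.37 and 1.43 CPM. The summed level of the markers went from 1456 and 1515 CPM in TN to 340 and 324 CPM in TNBU.

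Of 24342 tested genes, 6094 (25.0%) were higher and 4027 (16.5%) lower in TNBU than in TN. The counts of called members of each gene list are to be read beside these shares. Over 2-fold, 4775 genes were higher and 2140 lower. Against untreated cells the counts were 5735 (23.6%) higher and 4006 (16.5%) lower, and 5054 of the 6094 genes (82.9%) and 3336 of the 4027 (82.8%) had the same call in both comparisons, which share the TNBU libraries. The median log2 fold change of all tested genes in TNBU against TN was 0.09. Scaling by library size alone moved that median up by 0.20 and the split to 7329 higher and 2849 lower, so that 72.0% rather than 60.2% of the called genes were higher. Rises were the more frequent calls at low level and falls at high level. Of the 9439 genes with a mean under 1 CPM over the 4 libraries, 28.5% were higher and 5.43% lower. Of the 4733 genes between 1 and 10 CPM, 37.5% were higher and 19.4% lower. At 10 to 100 CPM (7951 genes) the shares were 17.4% and 25.1%, and at 100 CPM and above (2219 genes) 11% and 26.8%. The filter on low counts read all 12 libraries, most of them given a short-chain fatty acid. It thus kept weak genes on only in those more readily than weak genes on only in TN and Ctrl. With the edgeR default filter, 5096 genes were higher and 4055 lower. The part of the filter in the shares at low level was not tested. Among 15934 protein-coding genes 4437 were higher and 3173 lower, and among 4906 lncRNA genes 1219 and 524.

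**Figure D2:**
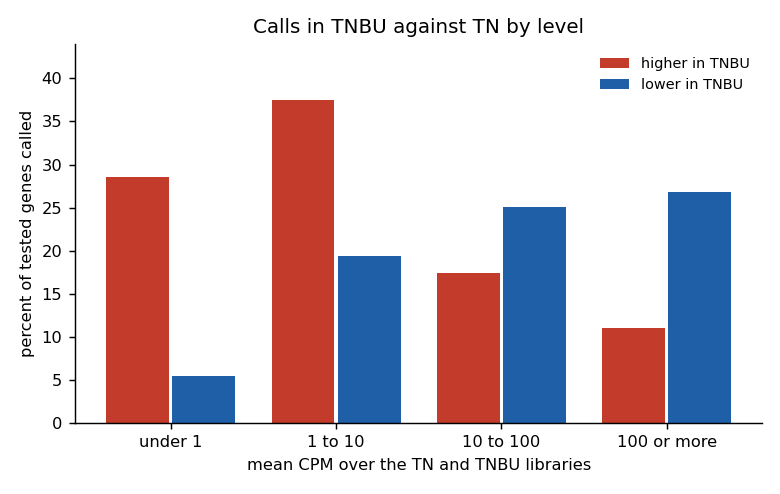
Percent of tested genes called higher (red) or lower (blue) in TNBU than in TN, for 4 ranges of the mean CPM over the 4 libraries. Rises exceed falls below 10 CPM, and falls exceed rises above it.

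Genes for secreted inflammatory signals held several of the largest falls. CSF2, which encodes the growth factor GM-CSF (ENSG00000164400.5, chr5:132073789-132076170 on GRCh38, plus strand), stood at 119 and 118 CPM in TN and 1.33 and 0.896 CPM in TNBU. Both TNBU libraries lay far below both TN libraries and below the untreated cells, at 48.8 and 51.1 CPM. The log2 fold change was -6.74 (SE 0.493, adjusted p = 1.97e-07), the largest fall among the named protein-coding genes. CSF1, the growth factor of macrophages, stood at 271 and 298 CPM in TN and 18.9 and 14.8 CPM in TNBU, a log2 fold change of -4.08 (SE 0.133). IL6, the main inducer of the acute phase response, went from 112 and 109 to 9.69 and 11.2 CPM (-3.4). LTB, lymphotoxin beta, went from 17.5 and 18.3 to 0.385 and 0.531 CPM (-5.25). In each of these genes the groups did not overlap and TNBU also lay below the untreated cells. TNFSF10, the death ligand TRAIL, stood at 657 and 652 and then 32.2 and 21.3 CPM, LIF at 211 and 224 and then 48.7 and 44.8 CPM, and IL11 at 90.4 and 87.7 and then 11.9 and 9.66 CPM, with log2 fold changes of -4.65, -2.22 and -3.06. Of the 16 inflammatory genes that the study names for these cells, all 16 fell, with a median log2 fold change of -2.66, and 15 of them were also lower than in untreated cells. The study chose them on these samples, so their direction is not independent evidence. Among the 19 tested of 22 cytokines and colony stimulating factors, 8 fell and 6 rose, against 16.5% and 25.0% of all tested genes.

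The cytokines that rose included TNF itself and IL18. TNF stood at 11.5 and 10.8 CPM in TN and 47.6 and 29.5 CPM in TNBU, with untreated cells at 3.02 and 3.73 CPM and BUTN at 79.3 and 79.7 CPM (log2 fold change 1.75, SE 0.37, adjusted p = 0.00138 against TN). IL18, a cytokine matured by the inflammasome, stood at 8.75 and 8.97 and then 52.3 and 57.3 CPM (2.63, SE 0.0958). For both genes the groups did not overlap, and the TNBU libraries differed from each other more for TNF. The other 4 rises were in genes of low level, with IL12A at 1.15 and 0.896 and then 2.87 and 3.48 CPM and IL1A, IL1B and TNFSF15 at most at 1.12 CPM in TNBU.

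Chemokines, which draw leukocytes into tissue, moved both ways. Of the 13 tested of 17, 8 fell and 3 rose, with a median of -0.94. Of all tested genes 16.5% fell and 25.0% rose, so the chemokine rises were near the latter share. CCL2, the monocyte attractant, stood at 18.1 and 20.6 CPM in TN and 2.7 and 1.56 CPM in TNBU (-3.24, SE 0.215). The neutrophil attractants CXCL2 and CXCL3 went from 298 and 268 to 57.4 and 40.1 CPM and from 67.2 and 70.9 to 14.3 and 11.2 CPM (-2.56 and -2.45). These closely related genes may share reads. CXCL8 stood at 1806 and 1712 CPM in TN, 900.2 and 779.9 CPM in TNBU and 948 and 929 CPM in untreated cells, so its fall of -1.07 on the log2 scale left it near the untreated level. CCL20, an attractant of dendritic and T cells, rose instead, from 212 and 216 to 685 and 749 CPM (1.74, SE 0.11, adjusted p = 5.86e-08). CXCL5 rose from 14.0 and 14.3 to 52.6 and 52.5 CPM (1.89, SE 0.0751), and CXCL16 rose as well (1.02). In both CCL20 and CXCL5 the TNBU libraries lay above all TN and Ctrl libraries, while BUTN stood at 944 and 1041 CPM for CCL20.

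**Figure D3:**
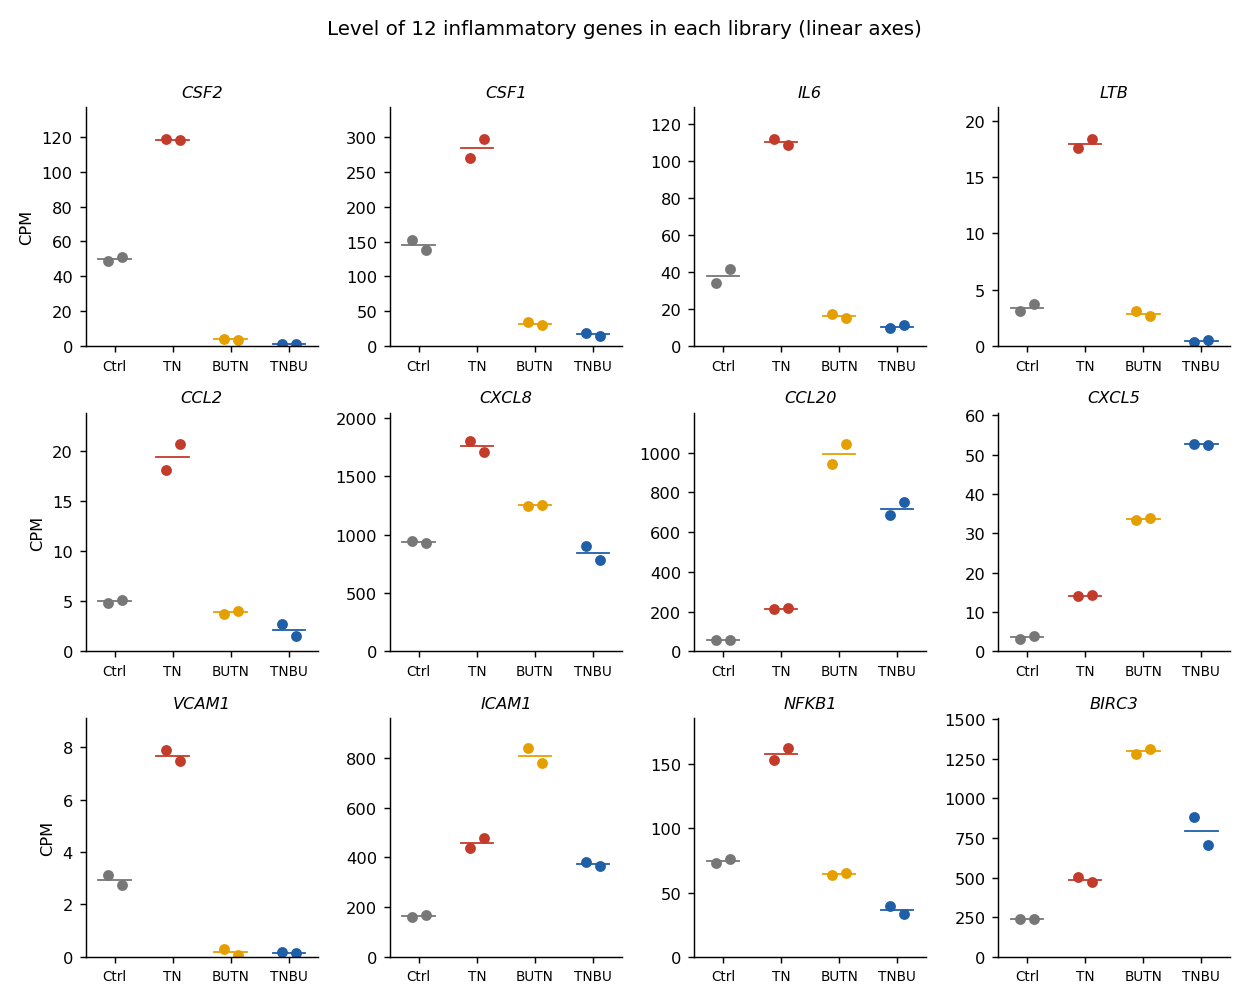
CPM of 12 inflammatory genes in each library (points) with the mean of the 2 replicates (line), in untreated cells (Ctrl), after TNF-α (TN), butyrate before TNF-α (BUTN) and butyrate after TNF-α (TNBU). Each panel has its own linear axis from 0. CSF2, CSF1, IL6, LTB, CCL2, VCAM1 and NFKB1 are lower in TNBU than in TN and Ctrl, CXCL8 is near Ctrl, CXCL5 is highest in TNBU, and CCL20, ICAM1 and BIRC3 are highest in BUTN.

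Among genes of the pathway itself, falls outnumbered rises. Of 9 NF-κB subunits and IKK kinases, 2 fell and 7 had no call, with a median log2 fold change of -0.13. The falls were near the share of all tested genes (16.5%). NFKB1, the p105/p50 subunit, stood at 153 and 162 CPM in TN and 39.6 and 33.3 CPM in TNBU (-2.12, SE 0.0818), and RELB fell by 0.67 on the log2 scale, with no call under library size alone (-0.48). RELA, the p65 subunit, stood at 89.8 and 94.5 and 87.4 and 95.6 CPM and NFKB2 at 182 and 195 and 169 and 175 CPM, with no call for either and with signs that turned under scaling by library size alone. Of 13 inhibitors and feedback genes, 6 fell and 7 had no call. NFKBIA, which encodes IκBα, stood at 305 and 322 CPM in TN and 92.9 and 73.2 CPM in TNBU (-1.93). TNFAIP3, the ubiquitin-editing brake A20, went from 479.9 and 498 to 186 and 172 CPM (-1.45) and TNIP1, its partner, from 488 and 522 to 185 and 201 CPM (-1.39).

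Of 18 genes of TNF receptor signalling, 6 fell and 3 rose, against 16.5% and 25.0% of all tested genes. CFLAR, which encodes the caspase-8 inhibitor FLIP, fell from 153 and 155 to 36.8 and 40.3 CPM (-2.0, SE 0.0665). The kinase gene IRAK2 fell from 83.4 and 86.8 to 22.0 and 17.0 CPM (-2.14). BIRC3, an inhibitor of apoptosis that TNF-α induces, rose from 504 and 469.5 to 880.5 and 707 CPM (0.70, SE 0.083, adjusted p = 1.31e-05), and was not called without TNBU replicate 1 (0.50). TNF receptor 1 (TNFRSF1A) stood at 92.0 and 101 CPM and then 66.8 and 55.8 CPM (-0.66, not called under library size alone or without TNBU replicate 2, at -0.46 and -0.53), whereas TNF receptor 2 (TNFRSF1B) rose from 0.894 and 1.26 to 11.6 and 12.1 CPM (3.46, SE 0.243). Of 17 cytokine receptors, 9 fell and 5 rose, the rises near the share of all tested genes (25.0%). IL7R fell from 70.9 and 63.6 to 9.6 and 10.2 CPM, CD40 from 167 and 175 to 50.2 and 55.0 CPM, and the interferon gamma receptor chain IFNGR2 from 118 and 120.4 to 40.9 and 36.7 CPM, with no overlap of the groups.

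Adhesion molecules for leukocytes split. VCAM1 stood at 7.89 and 7.47 CPM in TN and 0.175 and 0.133 CPM in TNBU, the latter near the level of 3 counts (-5.51, SE 0.491). CD44 fell from 412 and 414 to 139.5 and 157 CPM (-1.48). ICAM1 (ENSG00000090339.8, chr19:10271093-10286615 on GRCh38, plus strand) stood at 437 and 478 CPM in TN and 382 and 367 CPM in TNBU. Its TNBU libraries lay below the TN libraries and above the untreated cells (159 and 169 CPM), and the log2 fold change of -0.29 against TN did not reach the fold threshold. Of the 11 tested of 12 adhesion genes, 4 rose and 2 fell, against 25.0% and 16.5% of all tested genes. The rises were in ICAM2, ICAM5, F11R and ALCAM.

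Genes of tubular injury and the acute phase moved apart, with 5 of 13 higher and 4 lower, against 25.0% and 16.5% of all tested genes. LCN2, which encodes the kidney injury marker NGAL (ENSG00000148346.11, chr9:128149071-128153453 on GRCh38, plus strand), stood at 153 and 166 CPM in TN and 794 and 839 CPM in TNBU. It was 5.12-fold higher (log2 fold change 2.36, SE 0.0571, adjusted p = 6.38e-11), with untreated cells at 129.6 and 124 CPM. SAA1, serum amyloid A, went from 147 and 159.5 to 2381 and 2880 CPM, a 17.1-fold rise (log2 fold change 4.1, SE 0.109), and its neighbour SAA2 from 96.0 and 94.4 to 1484 and 2026 CPM. The coding parts of SAA1 and SAA2 are nearly alike, so their counts cannot be fully separated. CLU, the chaperone clusterin, rose from 14.0 and 16.9 to 286 and 349.9 CPM (4.36, SE 0.147). HAVCR1, which encodes the injury marker KIM-1, fell from 194 and 202 to 55.0 and 36.7 CPM (-2.14, SE 0.15). SPP1 (osteopontin) fell from 349.7 and 360.3 to 114 and 99.1 CPM, PTX3 (pentraxin 3) from 248 and 259 to 66.9 and 37.4 CPM, and SOD2, the mitochondrial superoxide dismutase, from 3292 and 3281 to 696 and 586 CPM. The injury markers NGAL and KIM-1 were thus on opposite sides, and in each the groups did not overlap.

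TNF-α alone raised 186 genes over untreated cells in this model. This count, and that of the lowered genes below, are smaller than those the study reported for this comparison at the same thresholds. The reason was not tested. In TNBU, 105 of them were lower than in TN, 20 higher and 61 without a call. These 3 counts are a description with no test, because the TN libraries define both comparisons. Of the 105 lower genes, 58 were also below untreated cells, 43 were not called against them and 4 were still above. Of the 61 without a call, 44 were above untreated cells. CCL20, CXCL5 and BIRC3 were among the 20 genes that went higher still. So were CYP24A1, the vitamin D 24-hydroxylase, at 63.6 and 65.0 CPM in TN and 477 and 453 CPM in TNBU, and the plasminogen activator gene PLAT, at 11.6 and 13.9 and 119.8 and 128 CPM. These last genes were picked after their values were seen. Of the 130 genes that TNF-α alone lowered, 61 were higher in TNBU than in TN, 27 lower and 42 without a call. These counts too are a description with no test, because the TN libraries define both comparisons. Being chosen as low in TN favours a rise against TN, and being chosen as high favours a fall. Of all tested genes, 25.0% were higher and 16.5% lower in TNBU than in TN.

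The promoters of 5 genes with different courses are shown to set the letters beside the values. They run from 250 bases before to 50 bases after the start of the gene, as given by RefSeq on GRCh38.p14, 5′ to 3′ on the strand of the gene. Capitals mark matches of the 10-letter kappaB consensus on either strand, where overlapping matches run together. LTB and CXCL2 fell against TN and against BUTN, LCN2 and CXCL5 rose against both, and ICAM1 fell against BUTN only. The windows are LTB at chr6:31582376-31582675 (minus strand), CXCL2 at chr4:74099146-74099445 (minus), ICAM1 at chr19:10270870-10271169 (plus), LCN2 at chr9:128149203-128149502 (plus) and CXCL5 at chr4:73998628-73998927 (minus).
LTB: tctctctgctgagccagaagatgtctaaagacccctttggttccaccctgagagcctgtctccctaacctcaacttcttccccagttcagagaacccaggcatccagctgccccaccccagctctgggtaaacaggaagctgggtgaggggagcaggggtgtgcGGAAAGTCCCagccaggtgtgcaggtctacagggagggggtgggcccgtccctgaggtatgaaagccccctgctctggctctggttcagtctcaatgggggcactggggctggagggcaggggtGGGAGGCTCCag
CXCL2: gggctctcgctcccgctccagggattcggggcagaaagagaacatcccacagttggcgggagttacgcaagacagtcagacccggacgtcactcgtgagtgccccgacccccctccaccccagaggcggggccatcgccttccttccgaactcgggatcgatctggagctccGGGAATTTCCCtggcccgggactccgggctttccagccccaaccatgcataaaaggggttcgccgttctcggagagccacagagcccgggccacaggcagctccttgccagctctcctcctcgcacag
ICAM1: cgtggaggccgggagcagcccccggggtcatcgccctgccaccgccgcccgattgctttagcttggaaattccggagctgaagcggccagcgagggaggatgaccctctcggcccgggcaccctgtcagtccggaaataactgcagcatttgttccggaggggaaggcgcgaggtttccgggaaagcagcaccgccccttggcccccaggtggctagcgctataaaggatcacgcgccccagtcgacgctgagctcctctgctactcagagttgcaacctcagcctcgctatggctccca
LCN2: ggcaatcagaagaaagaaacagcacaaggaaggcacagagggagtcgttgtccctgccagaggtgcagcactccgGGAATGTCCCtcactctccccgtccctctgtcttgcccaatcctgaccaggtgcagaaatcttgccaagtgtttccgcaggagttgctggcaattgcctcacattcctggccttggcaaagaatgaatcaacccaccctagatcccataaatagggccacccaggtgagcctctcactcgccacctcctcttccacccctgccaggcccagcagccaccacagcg
CXCL5: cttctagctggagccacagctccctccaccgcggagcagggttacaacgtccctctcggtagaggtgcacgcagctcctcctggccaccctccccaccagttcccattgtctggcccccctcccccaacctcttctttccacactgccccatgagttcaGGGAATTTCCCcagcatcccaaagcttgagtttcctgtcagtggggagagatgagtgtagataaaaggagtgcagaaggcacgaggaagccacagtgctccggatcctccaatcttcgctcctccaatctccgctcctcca

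In LTB the first match begins 86 bases before the start and the second 38 bases after it. CXCL2 and CXCL5 hold the same letters, GGGAATTTCC, which begin 78 and 91 bases before the start and also match on the other strand 1 base further on. In LCN2 a match, GGAATGTCCC, begins 175 bases before the start and the AP-1 motif TGANTCA is found 52 bases before it. The ICAM1 window holds no full match of the consensus, though its stretch tggaaattcc differs from it in 1 letter only. This window has the TATA box TATAAA 30 bases before the start and the GC box GGGCGG, on the other strand, 206 and 59 bases before it. Genes with opposite courses thus held the same motif, and these matches are a description of letters only.

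Over all 35114 RefSeq promoter windows, 11.3% held the kappaB consensus, and over the 18506 windows of tested genes 13.3%. The share was 24.1% in the 112 windows found for 73 of the 105 genes that TNF-α raised and that were lower in TNBU. It was 15.7% in 70 windows for 40 of the 61 genes without a call, and 44.4% (8 windows) in 18 windows for 14 of the 20 genes that went higher. The GC box stood in 61.9% of the windows of tested genes and in 62.5%, 65.7% and 72.2% of these 3 sets. For TATAAA the shares were 7.12% and then 8.93%, 7.14% and 16.7%, and for TGANTCA 5.77% and then 10.7%, 2.86% and 5.56%. All motifs were searched on both strands, and genes with several starts have several windows.

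Butyrate given after TNF-α was then set against butyrate given before it. Of 24342 genes, 23 (0.0945%) were higher and 42 (0.173%) lower in TNBU than in BUTN. The counts depended on the libraries and on the spread that was used. They were 141 and 167 without TNBU replicate 1 and between 5 and 6 higher and 5 and 9 lower without either BUTN replicate. With these 2 groups alone in the model, 2 genes were higher and 2 lower. Of the 65 genes, 10 were called whichever of the replicates was left out, namely LCN2, SAA1, SAA2, CXCL5 and C1S, all higher in TNBU, and ICAM1, NFKB1, TNFAIP3, LTB and PLAU, all lower. LCN2, SAA1, ICAM1 and PLAU were the 4 called with the 2 groups alone.

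LCN2 stood at 228 and 228 CPM in BUTN and 794 and 839 CPM in TNBU, 3.57-fold higher in the latter (log2 fold change 1.84, SE 0.055, adjusted p = 6.54e-09). SAA1 stood at 1109 and 1152 CPM in BUTN (1.21, SE 0.0954, adjusted p = 0.000137) and SAA2 at 677 and 701 CPM (1.33). Among TNBU, BUTN, TN and Ctrl, these acute phase genes were highest in TNBU, lower in BUTN and lowest in TN and Ctrl. There was no overlap between TNBU and BUTN. TNPR overlapped TNBU for SAA1 (2131 and 2611 CPM) and SAA2 (1389 and 1837 CPM) and lay below it for LCN2 (468.5 and 473 CPM). CXCL5 stood at 33.4 and 34.0 CPM in BUTN (0.64 in TNBU against BUTN). The complement protease gene C1S stood at 40.2 and 41.9 CPM in TN, 28.5 and 27.0 CPM in BUTN and 48.9 and 45.8 CPM in TNBU (0.77 against BUTN), so that its TNBU level lay close to that of TN. Also higher were PI3, the protease inhibitor elafin, at 0.563 and 0.636 CPM in BUTN and 2.35 and 2.69 CPM in TNBU (2.04), DKK1, a secreted WNT inhibitor, at 81.9 and 85.7 and 136 and 188 CPM (0.93), ARFGEF3 (1.05) and SOCS3, the feedback inhibitor of STAT3 signalling (0.72).

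Of the 42 genes that were lower after than before, 22 were among the 186 that TNF-α alone raised. ICAM1 stood at 838 and 782 CPM in BUTN and 382 and 367 CPM in TNBU (log2 fold change -1.11, SE 0.0587, adjusted p = 2.78e-06), and BUTN lay above the TN libraries as well. LTB stood at 3.07 and 2.66 CPM in BUTN (-2.6, SE 0.317, adjusted p = 0.00434). Next came PTX3 at 174 and 172 CPM (-1.79) and TNFAIP2 at 392 and 372 CPM in BUTN and 152 and 87.1 CPM in TNBU (-1.73). Both of these had a wide gap between the TNBU replicates. The tyrosine phosphatase gene PTPN7 (-1.71) and the genes CXCL3 (-1.26), CXCL2 (-1.14) and IRAK2 (-1.04) were lower too. NFKB1 (-0.83), NFKBIA (-0.74), TNFAIP3 (-0.69) and BIRC3 (-0.72), the last at 1281 and 1314 CPM in BUTN, followed. The urokinase gene PLAU, picked after its values were seen, stood at 322 and 352 CPM in TN, 100.5 and 98.2 CPM in BUTN and 49.6 and 50.6 CPM in TNBU (-0.99 against BUTN). Of the 186 genes that TNF-α alone raised, 2 were higher in TNBU than in BUTN. The median log2 difference of the 186 was -0.24, and 146 of them (78.5%) lay lower in TNBU, against 50.9% of all tested genes.

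**Figure D4:**
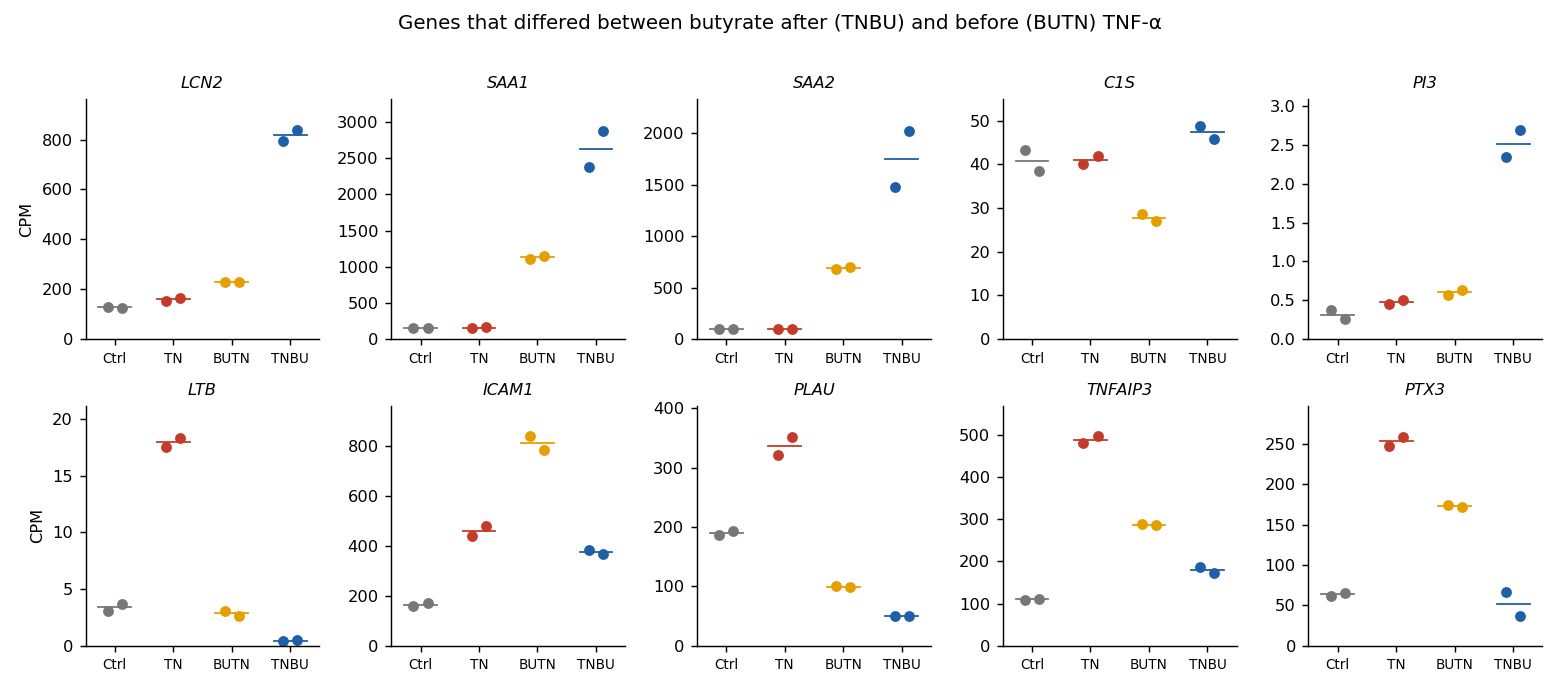
CPM of 10 genes called between butyrate after (TNBU) and before (BUTN) TNF-α, in each library (points) with the mean of the 2 replicates (line), on linear axes from 0 with TN and Ctrl beside them. LCN2, SAA1, SAA2 and PI3 are highest in TNBU, C1S is lowest in BUTN, ICAM1 is highest in BUTN, and LTB, PLAU, TNFAIP3 and PTX3 fall from TN over BUTN to TNBU.

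The cell cycle was split between its phases. Of 23 genes of mitosis, 19 fell in TNBU and 4 had no call, with a median of -1.15. CCNB1, the mitotic cyclin B1, stood at 176 and 169 CPM in TN and 51.0 and 52.7 CPM in TNBU (-1.73, SE 0.0612). The mitotic kinase genes AURKA and PLK1 went from 187 and 172 to 50.8 and 52.9 CPM and from 125 and 126 to 40.2 and 43.2 CPM. Of 23 genes of DNA replication, 3 fell and 3 rose, with a median of -0.07. Both counts were below the shares of all tested genes (16.5% and 25.0%). MCM7, a helicase subunit, fell by 0.95 on the log2 scale and thymidylate synthase (TYMS) fell by 1.23, while RRM2, the inducible ribonucleotide reductase subunit, rose from 295 and 269 to 520.5 and 579.6 CPM. Among 7 inhibitors of cyclin-dependent kinases, CDKN1A (p21) rose from 38.9 and 38.3 to 228 and 252 CPM (2.64, SE 0.0658, adjusted p = 8.04e-11) and CDKN2D rose as well (2.09). CDKN1B, CDKN1C, CDKN2A and CDKN2B fell, by 0.60 to 1.43 on the log2 scale. Under scaling by library size alone 2 of these 4 falls were called, and CDKN1B was also not called by DESeq2 (-0.58) or without TNBU replicate 2 (-0.48). Of 8 genes of G1 cyclins and kinases, CCND3 and CCNE1 rose, near the share of all tested genes (25.0%), and CDK4 and CDK6 fell. Neither of the falls was called under scaling by library size alone.

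Genes of the histone acetylation machinery, which butyrate acts on, had calls in both directions. Of 16 histone deacetylases and corepressors, 4 rose and 2 fell, shares near those of all tested genes (25.0% and 16.5%), and 1 fell by edgeR, by DESeq2, under library size alone or without TNBU replicate 2. HDAC3 rose from 75.1 and 76.5 to 136 and 143 CPM (0.88, SE 0.058) and HDAC5 from 12.8 and 15.3 to 37.9 and 43.5 CPM (1.53), while HDAC7 fell from 129.9 and 137 to 37.7 and 38.3 CPM (-1.81). HDAC1 stood at 295 and 298 and 408 and 408 CPM (0.46), below the fold threshold here and above it under library size alone (0.66). Of 13 histone acetyltransferases, 7 fell and 6 had no call, with CREBBP at 80.7 and 87.4 and then 42.7 and 30.7 CPM and KAT6B at 39.0 and 37.4 and then 9.56 and 8.86 CPM. Of 9 BET readers and elongation factors, 4 fell, BRD2 among them (-0.70), and ELL2 rose. The falls numbered 2 under library size alone and without TNBU replicate 2. The variant histone gene MACROH2A2 fell from 58.2 and 63.9 to 9.63 and 7.17 CPM (-2.88). Of 10 replacement histones, 3 rose and 4 fell, the rises near the share of all tested genes (25.0%).

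The transporter SLC16A1 (MCT1), which carries butyrate, stood at 340.1 and 342 CPM in TN and 318 and 292 CPM in TNBU with no call and a sign that turned under scaling by library size alone. Its partner BSG (basigin) rose from 459.7 and 526 to 848 and 899 CPM (0.83), the only call among the 6 tested of 9 receptors and transporters of short-chain fatty acids. The receptor genes FFAR2 and HCAR2 stayed below 0.3 CPM in all 4 libraries, and FFAR3 did not pass the filter on low counts. Among 17 tested genes of fatty acid oxidation, 4 rose and 3 fell, shares near the 25.0% and 16.5% of all tested genes. PDK4, a kinase that inhibits pyruvate dehydrogenase, stood at 0.0745 and 0.0359 CPM in TN and 1.61 and 1.79 CPM in TNBU (4.61). The coactivator PPARGC1A fell from 113 and 105 to 34.0 and 23.9 CPM (-1.94). Of 13 proteins encoded by the mitochondrial genome, 5 fell, with a median of -0.54. TNBU replicate 1 had the lower level of each of the 13, and the falls numbered 10 without replicate 2 and 1 under scaling by library size alone.

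The largest rises were in genes that were silent or nearly so in TN. NGFR, the low-affinity neurotrophin receptor (ENSG00000064300.8, chr17:49495293-49515008 on GRCh38, plus strand), had 0 counts in both TN libraries and stood at 10.6 and 11.2 CPM in TNBU, at least 99.3-fold higher against a floor of 3 counts per library. ELAVL3, a neuronal RNA-binding protein, went from 0 to 6.34 and 7.87 CPM (at least 64.8-fold), and PRKCB, a protein kinase C isoform, from 0 to 5.63 and 5.93 CPM (at least 52.7-fold). Both stood at like levels in BUTN. ALPG (listed as ALPPL2), the germ cell alkaline phosphatase, went from 0 to 3.99 and 6.88 CPM and shares reads with its neighbour ALPP. RFPL4A, which has near-identical copies, CREB3L3, CALB2 and COL2A1 were also at 0 in both TN libraries, with rises of at least 57.1, 40.7, 40.0 and 38.2-fold. NRXN2, the tetraspanin CD9 and SNCB had at most 1 count in a TN library and stood between 7.18 and 12.4 CPM in TNBU. CPA4, a carboxypeptidase gene first found as induced by histone deacetylase inhibitors, went from 1.34 and 1.51 to 289.6 and 425 CPM (7.93, SE 0.591).

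In all, 60 genes had 0 counts in both TN libraries and at least 1 CPM in both TNBU libraries, 49 of them protein-coding. They were chosen by these values, so that 58 of the 60 were called higher is not a separate result. The filter on low counts read all 12 libraries, and such genes passed it mainly through the libraries given a short-chain fatty acid. Of the 60 genes, 47 were at 1 CPM or more in both BUTN libraries. Of the 15 tested among 18 neuronal genes, 11 rose and 1 fell, with a median log2 fold change of 1.61, which was the same with the genes at 0 in TN set to their bound. SYP, the synaptic vesicle protein synaptophysin, went from 0.819 and 0.682 to 22.7 and 21.7 CPM (4.86, SE 0.25). REST, the repressor of neuronal genes, fell from 58.4 and 58.4 to 37.8 and 28.6 CPM (-0.83). Of 8 tested metallothioneins 4 rose and MT1M fell, and of the 3 tested alkaline phosphatases all 3 rose, with ALPL at 0.67 and 0.933 and then 10.9 and 10.8 CPM. The metallothioneins and ALPP are near-identical within their families, and reads may be divided between them.

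**Figure D5:**
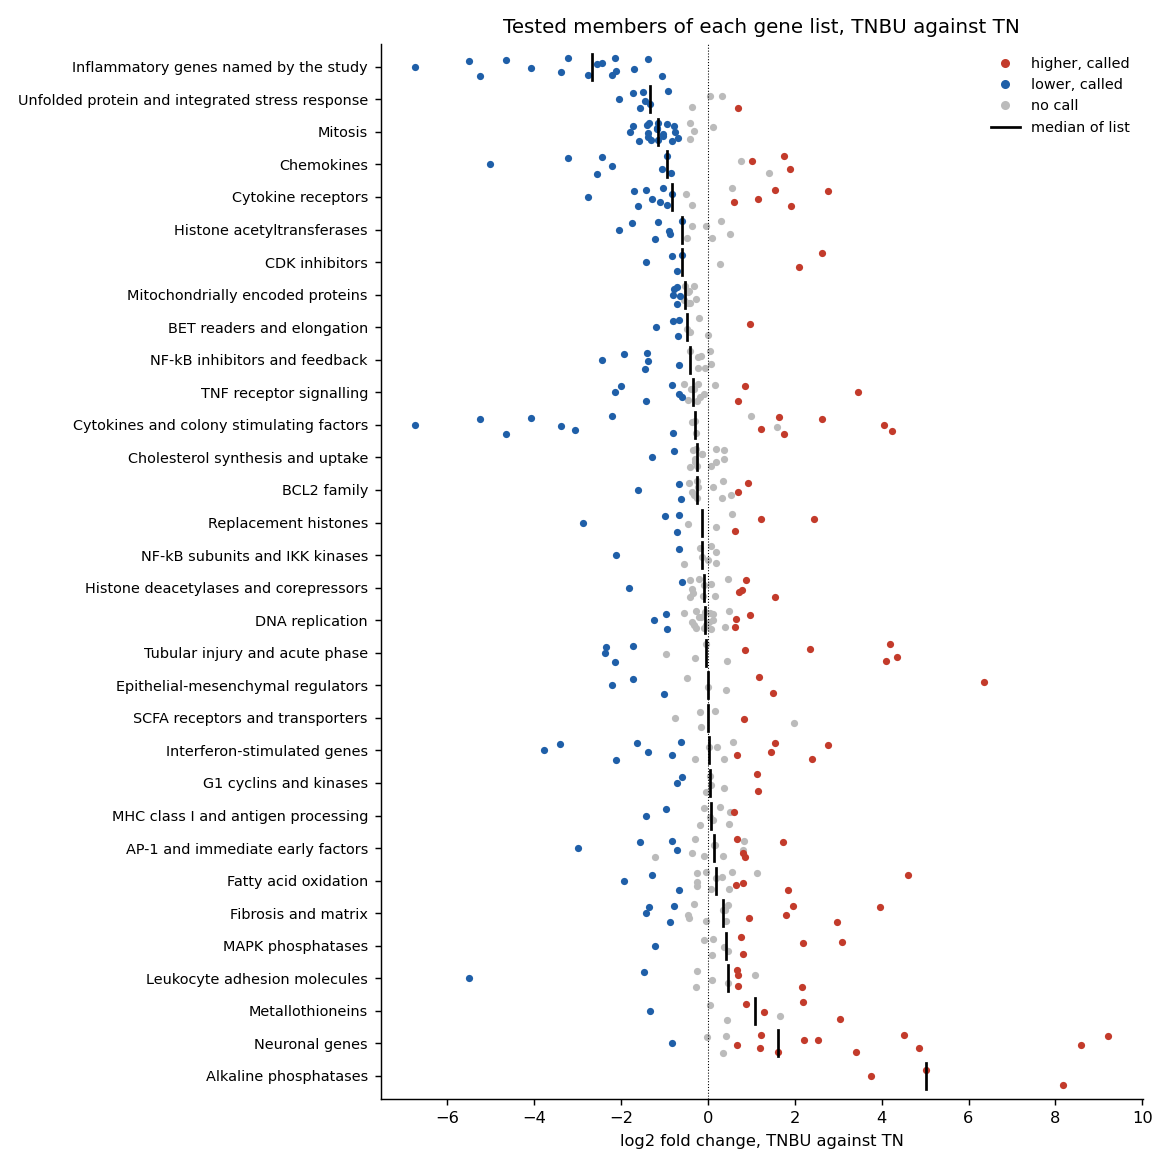
Log2 fold change of TNBU against TN for each tested member of the 32 gene lists, ordered by the median of the list (black bar). Red points were called higher, blue points lower and grey points had no call. The lists with the lowest medians are the inflammatory genes named by the study (-2.66) and the unfolded protein response (-1.33), and those with the highest are the alkaline phosphatases (5.02) and neuronal genes (1.61).

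The other named large falls were in genes of varied function. CLDN2, the pore-forming claudin of the proximal tubule, stood at 178 and 192 CPM in TN and 4.1 and 1.53 CPM in TNBU (-6.21, SE 0.518), with BUTN at 8.78 and 6.63 CPM. ENPP3, a nucleotide-cleaving ectoenzyme, went from 255 and 251 to 10.6 and 10.3 CPM (-4.6) and CDH6 fell by 4.09 on the log2 scale. CLEC4E, the innate immune receptor Mincle, went from 43.3 and 42.8 to 1.05 and 0.996 CPM. The glucuronidation genes UGT2B7 (-4.4) and UGT1A6 (-3.93) and the olfactory receptor gene OR2A4 (-6.25) also fell, and all 3 share sequence with close relatives. OR2A4 was not called by DESeq2 (adjusted p = 0.0876).

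Epithelial and matrix genes changed without a common direction. CDH1, E-cadherin, stood at 0.0745 and 0.144 CPM in TN and 12.2 and 8.37 CPM in TNBU (6.36, SE 0.684) and KRT19, keratin 19, at 4.47 and 4.59 and then 114 and 112 CPM. EPCAM fell from 56.1 and 58.1 to 21.1 and 14.3 CPM and N-cadherin (CDH2) from 314 and 301 to 155 and 148 CPM. Of the repressors of E-cadherin, ZEB2 fell (-2.22) and SNAI1 rose (1.5). Of 17 genes of fibrosis and matrix, 5 rose and 4 fell, near the shares of all tested genes (25.0% and 16.5%). COL1A1, collagen I, rose from 39.6 and 43.2 to 162 and 160.4 CPM, TGFB2 rose by 0.94, and COL4A1, collagen IV of basement membrane, fell from 2410 and 2550 to 1021 and 927 CPM (-1.35), as did the crosslinking enzyme LOX (-1.44).

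Of 11 genes of the unfolded protein and integrated stress responses, 7 fell and 1 rose, with a median of -1.33. XBP1 fell from 102 and 102 to 25.8 and 23.4 CPM (-2.06, SE 0.0734) and ATF4 from 351 and 337 to 137 and 136 CPM (-1.33, SE 0.0613). Of 17 interferon-stimulated genes, 7 fell and 5 rose, the rises near the share of all tested genes (25.0%). GBP1 fell from 39.2 and 36.2 to 2.38 and 3.09 CPM and IFIT3 from 24.2 and 21.3 to 2.5 and 1.82 CPM, whereas IFI6 rose from 5.55 and 6.46 to 39.3 and 42.5 CPM and ISG15 from 12.8 and 16.0 to 41.4 and 41.7 CPM. Of 17 AP-1 and immediate early genes, 4 rose and 4 fell, also near the shares of all tested genes (25.0% and 16.5%), with FOS at 46.2 and 35.9 and then 158 and 115 CPM and FOSL1 at 84.7 and 70.4 and then 10.8 and 8.6 CPM. Of 10 MAPK phosphatases, 4 rose and 1 fell, against 25.0% and 16.5% of all tested genes. DUSP6, the phosphatase of ERK, rose from 17.8 and 14.8 to 71.4 and 76.0 CPM (2.19).

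The remaining groups had few calls, at shares close to or below those of all genes. Of 15 BCL2 family genes, BCL2L11 and BIK rose and BID, BCL2 and BCL2L2 fell, with BID at 84.5 and 95 and then 31.3 and 27.4 CPM (-1.61), and BCL2 was not called under library size alone (-0.47) or without TNBU replicate 2 (-0.49). Among 15 genes of cholesterol synthesis and uptake, HMGCS1, a synthase of the sterol pathway, fell (-0.78). Among 10 genes of MHC class I and antigen processing, the peptide transporter subunit TAP2 and the immunoproteasome subunit PSMB8 fell (-0.96 and -1.42).

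Markers of other cell types were examined for RNA that does not come from epithelium. In a bulk sample, fewer cells of a type and less RNA per cell cannot be told apart. Of 10 macrophage markers 5 were tested and 3 rose, with a summed level of 1.23 and 1.19 CPM in TN and 3.78 and 4.75 CPM in TNBU, while the defining markers PTPRC, CD163 and C1QA were at 0 in all 4 libraries. Of 10 lymphocyte markers 5 were tested and 3 rose (summed 0.112 and 0.359 CPM, then 1.4 and 1.79 CPM), and MS4A1 was at 0 in all 4. Of 6 endothelial markers 4 were tested and all 4 rose (0.149 and 0.287 CPM, then 3.73 and 3.87 CPM), and EMCN was at 0 in all 4. Of 6 fibroblast markers, 5 rose and DCN fell (summed 52.9 and 54.8 CPM, then 204 and 225 CPM, mostly COL1A1). Of 6 epithelial markers, 4 rose and EPCAM fell. The low-level rises of these markers moved with the rises of silent genes above, and their part in those results was not tested.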

How the data were processed

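RNA of HK2 cells was sequenced as stranded mRNA libraries in 12 samples, of which the 4 TN and TNBU samples were compared and the Ctrl and BUTN samples served as references. Per library, the authors deposited the expected counts of RSEM, from reads checked with FastQC 0.11.5 and aligned with STAR 2.6.1a to GRCh38 with a GENCODE annotation, and did not normalize them. The strand setting of RSEM is not given in the sources used here, so antisense and overlapping genes are uncertain. Of the values, 19.25% were not whole, because RSEM divides reads between similar genes.

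Unrounded counts were tested with limma 3.58.1 (voom) in R 4.3.3 with TMM factors from edgeR 4.0.16, as in the study's methods. All 12 libraries entered with a mean for each of the 6 groups (prior degrees of freedom 6.12). Genes were kept where the geometric mean of the count + 1, minus 1, was at least 1, which left 24342 of 58278 genes. A call needed a fold change over 1.5 and a Benjamini-Hochberg adjusted p under 0.05. A gene at 0 was taken to have fewer than 3 counts, a floor for counting error alone. Total counts were 27269986 to 33851130 per library, and the median SE of the log2 fold change of TNBU against TN was 0.212.

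Alternatives were edgeR and DESeq2 1.42.0 on rounded counts, other scalings and filters, sample quality weights, the replicate number as a block, only the groups compared, and each replicate left out. Named were the members of the gene lists on which results turn, the 12 largest rises and falls against TN and the 8 against BUTN among called protein-coding genes whose groups did not overlap and whose higher group reached 1 CPM in both libraries, without read-through genes and genes lacking an established name, and the 8 largest replicate differences. The comparison and the lists were chosen with earlier results of these data known. Gene positions are from GENCODE on GRCh38, promoters from RefSeq on GRCh38.p14. Some genes of the lists are counted but not reported here by name.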

Additional observations from a re-analysis of the deposited data

Results flagged for a closer look

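The following genes differed between butyrate given after (TNBU) and before (BUTN) TNF-α, by the limma test of the difference itself. They are 24 of the 65 called genes, and PLAU (-0.99), described above, was also called but is not among them. Of the 24, only LCN2, SAA1 and ICAM1 were also called with these 2 groups alone in the model. Groups of 2 libraries were too small for a test of single libraries that stand apart. The groups of each gene did not overlap. The log2 differences of the genes higher in TNBU were 2.04 for PI3, 1.84 for LCN2, 1.33 for SAA2, 1.21 for SAA1, 1.05 for ARFGEF3, 0.93 for DKK1, 0.77 for C1S, 0.72 for SOCS3 and 0.64 for CXCL5. Those of the genes lower in TNBU were -2.60 for LTB, -1.79 for PTX3, -1.73 for TNFAIP2, -1.71 for PTPN7, -1.26 for CXCL3, -1.14 for CXCL2, -1.11 for ICAM1, -1.04 for IRAK2, -0.92 for CSF1, -0.90 for CDH6, -0.83 for NFKB1, -0.74 for NFKBIA, -0.74 for AQP1, -0.72 for BIRC3 and -0.69 for TNFAIP3. The 2 groups also differ in the time since TNF-α, and that time and the order of the treatments cannot be told apart.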

How the results depend on the processing

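Counts for TNBU against TN lay between 4837 and 7329 higher genes and 2849 and 4367 lower genes over all alternatives, within 1.5 times the reported counts. Leaving out a replicate gave 4837 to 5877 higher and 3565 to 4212 lower genes, and the replicate block 6089 and 4020. Counts for TNBU against Ctrl also kept within 1.5 times. Counts for TNBU against BUTN did not. They ranged from 5 to 141 higher and 5 to 167 lower genes when a replicate was left out, the high values coming without TNBU replicate 1, and were 2 and 2 with only the groups compared. They were 17 and 37 by edgeR, 30 and 57 by DESeq2 and 30 and 49 with the replicate block. The cause was not tested. Deviations of same-numbered replicates from the group means correlated over 0.1 in 1 of 15 pairs of groups, TNBU and TNPR (0.24). For TNBU and TN the correlation was 0.0517. What same-numbered TNBU and TNPR replicates had in common was not tested. The block changed no other count by 1.5 times, but it is 1 term for all groups and cannot take up something shared by TNBU and TNPR alone. Of the alternative values of 130 genes tested against TN, 1661 kept the side of the threshold and the direction, 21 lost the call and 1 gained it (HDAC1 under library size alone), and 3 genes turned their sign, none of them called. These were NFKB2 (0.062) and SLC16A1 (0.032) under library size alone, and RELA by DESeq2 (0.005), with relative log expression factors (0.004), under library size alone (0.19) and between -0.075 and 0.017 without a TNBU or TN replicate. None of the 24 genes flagged above against BUTN, which leave out PLAU, turned its sign, but 58 of their alternative values lost the call and 254 kept it. With 2 replicates a group, the design limits small differences more than depth does, and genes near 3 counts can be read only as present or absent.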
